A study of Drosophila melanogaster with 6 samples.

Results

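The cell cycle and DNA replication genes described here are 35 genes chosen by name for their known roles, from the replication fork to mitotic exit. Earlier results of these data were known when these genes were chosen. Each was read from the brightest probe set (a group of short probes for 1 transcript) that names the gene alone in the platform annotation. This gave 23 measured genes of 11981 in all. The other 12 were not analysed here: RnrS, Mcm7, Orc6, geminin, E2f1, dap, CycA, Cdk1, stg, polo, aurA and BubR1. The measured genes include 11 of 15 listed S phase genes but only 5 of 11 listed mitosis genes, so the mitosis side is the thinner one.

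Total RNA of whole Drosophila melanogaster embryos was hybridised to 6 one-colour Affymetrix Drosophila Genome 2.0 arrays, 3 for wild type and 3 for trh null mutant embryos. trh (trachealess) encodes the transcription factor that starts tracheal development, and the labels do not name the allele. The trh transcript itself was not analysed here, so it gives no check of the genotype labels. Eggs were laid over 8 h and the embryos aged for another 11 h, and the labels give stages 11 to 16 for both genotypes, although the description of the wild type samples extends to stage 17. Embryos of both genotypes went through a COPAS biosorter, and trh null embryos were those without the GFP of the balancer. The labels do not say whether replicate arrays stand for separate egg collections, so p-values cover the spread between arrays alone, and that spread may be technical. In RNA of whole embryos, a change in the number of cycling cells and a change in RNA per cycling cell cannot be told apart. Wild type replicate 2 stood apart: it correlated with the other wild type arrays at 0.979 and 0.976 (Pearson's r over probe sets), while replicates 1 and 3 gave 0.994 and trh null pairs 0.995 to 0.998. Results that rest on it are given with and without it.

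The MCM helicase is loaded on origins before S phase by the origin recognition complex and its helpers. In S phase PCNA holds the polymerases on the DNA while ribonucleotide reductase supplies deoxynucleotides. Genes for these proteins are classic targets of the E2F and Dp transcription factors, which Rbf restrains until G1 cyclin kinases act. B-type cyclins and the Aurora kinases drive mitosis, and the anaphase-promoting complex with fzy or fzr ends it. In the Drosophila embryo most epidermal cells stop dividing before the later stages collected here. Neuroblasts go on dividing, and gut and other tissues replicate DNA without mitosis.

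In trh null embryos 4 of the 23 measured genes rose and none fell. These were PCNA, RnrL, Orc2 and Cdk2, with rises between 1.41-fold and 1.83-fold. A call means an adjusted p under 0.05 in limma's moderated test, adjusted by Benjamini-Hochberg over 18769 probe sets. By that rule 6.79% of all genes rose and 7.31% fell, against 17.4% and 0% of the measured cell cycle genes. At an unadjusted p under 0.05, 11 of the 23 were higher and still none lower, beside 15.1% and 15.3% of all genes. The difference (trh null minus wild type, log2 scale) was positive for 22 of 23 genes, CycB at 0.00 included, with a median of 0.37, whereas 50.1% of all genes had a positive difference and their median was 0.00. All 3 trh null values lay above all 3 wild type values for 10 of the 23 genes. For all genes the share was 18.8%, and a further 19.4% had all trh null values below, which no measured cell cycle gene did.

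**Figure D1:**
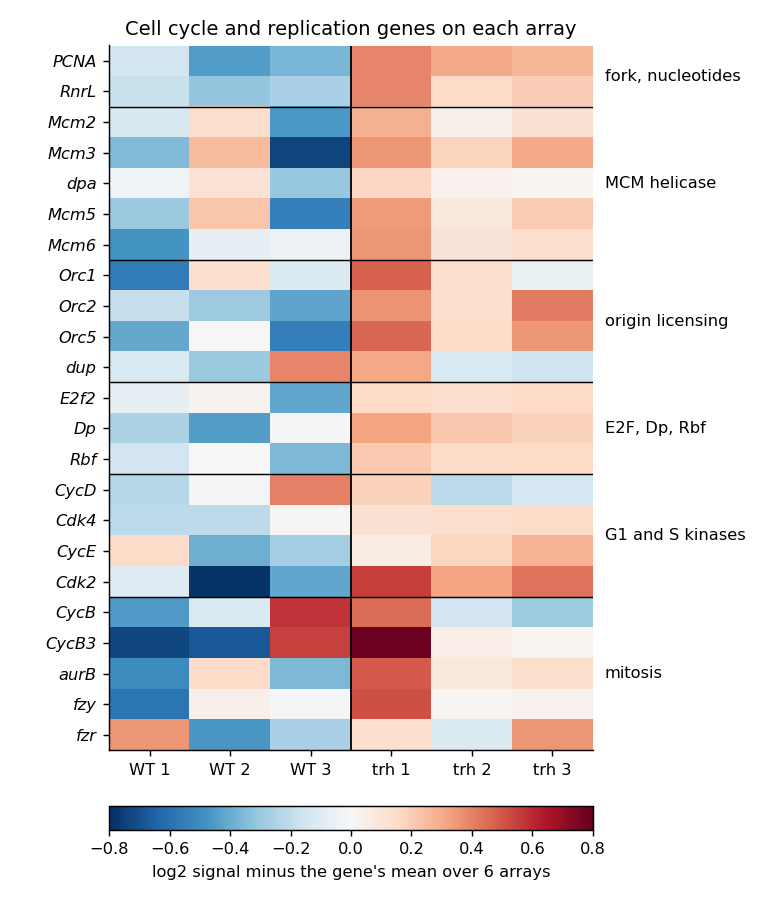
Log2 signal of the 23 measured genes (rows, grouped by role) on each of the 6 arrays (columns; WT, wild type; trh, trh null), as the difference from the gene's own mean over the arrays. The trh null columns are mostly above the mean, with trh null replicate 1 the highest trh null array for 19 of 23 genes, while the wild type columns differ among themselves by gene.

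PCNA, the sliding clamp of the replication fork, had log2 signals of 10.80, 10.50 and 10.58 on wild type arrays and 11.34, 11.25 and 11.21 on trh null arrays. The groups were separated by 0.41, more than the range within either of them. The difference was 0.64 (SE 0.10, 95% confidence interval 0.39 to 0.89, limma adjusted p = 0.0130). RnrL, the large subunit of ribonucleotide reductase, had 9.71, 9.58 and 9.63 in wild type and 10.28, 10.05 and 10.09 in trh null embryos, again without overlap. Its difference was 0.50 (SE 0.09, limma adjusted p = 0.0196). The call for PCNA was lost when any 1 trh null array was left out (0.0616 to 0.0671 for limma's adjusted p), with differences of 0.60 to 0.67, and was kept when any 1 wild type array was left out. The call for RnrL was lost in the same fits and with wild type replicate 3 left out, its limma adjusted p then lying between 0.0529 and 0.0802. The small subunit gene was not analysed here.

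The MCM helicase is a ring of related subunits that unwinds DNA, and 5 of its 6 listed genes were measured. None passed the test in limma, although all 5 differences were positive, and at an unadjusted p under 0.05 only Mcm6 was higher. Mcm3 had 8.80, 9.41 and 8.42 in wild type and 9.51, 9.33 and 9.46 in trh null embryos. Mcm5 had 9.07, 9.59 and 8.82 against 9.71, 9.45 and 9.57. In each, wild type replicate 2 reached into the trh null range and the other wild type arrays lay below it. The differences were 0.56 for Mcm3 (95% confidence interval -0.03 to 1.14), 0.42 for Mcm5 (-0.06 to 0.90), 0.40 for Mcm6 (0.06 to 0.74), 0.30 for Mcm2 (-0.09 to 0.69) and 0.14 for dpa, the Mcm4 gene (-0.15 to 0.44). Wild type replicate 2 was the highest wild type array for 4 of the 5 MCM genes, the exception being Mcm6. Over all genes it was the highest wild type array for 6003 of 11981. With that array left out, Mcm3 (0.82, limma adjusted p = 0.00494), Mcm5 (0.64, adjusted p = 0.00866) and Mcm2 (0.44, adjusted p = 0.0410) passed, and Mcm6 (0.0588) and dpa (0.142) did not.

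Among genes of origin recognition and licensing, Orc2 rose and Orc1, Orc5 and dup did not pass. Orc2, a subunit of the origin recognition complex, had 6.55, 6.44 and 6.31 in wild type and 7.09, 6.87 and 7.14 in trh null embryos. These levels are close to the median of all probe sets, 6.21, where background can compress differences. Its difference was 0.60 (SE 0.11, limma adjusted p = 0.0186), and the call was lost without trh null replicate 1 or 3 (adjusted p = 0.0852 and 0.0927). Orc5, of the same complex, had 7.29, 7.70 and 7.15 against 8.16, 7.85 and 8.05. The groups did not overlap, but the difference of 0.64 just missed the threshold (SE 0.16, limma adjusted p = 0.0526) and passed without wild type replicate 2 (0.80, adjusted p = 0.00337). Orc1, the ATPase subunit that is under E2F control in flies, had a difference of 0.36 with overlapping groups (95% confidence interval -0.15 to 0.88). dup, the Cdt1 gene that loads the MCM ring, stood apart from these. Its signals were 10.18, 10.00 and 10.69 in wild type and 10.61, 10.18 and 10.14 in trh null embryos. Wild type replicate 3 and trh null replicate 1 were the high arrays, and the difference was 0.02 (95% confidence interval -0.49 to 0.53).

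The genes of the E2F module had similar differences, and none of the 3 measured passed in limma, while all 3 were higher at an unadjusted p under 0.05. Dp, the partner of both E2F proteins, had 9.90, 9.71 and 10.14 in wild type and 10.47, 10.37 and 10.34 in trh null embryos (difference 0.48, SE 0.12, limma adjusted p = 0.0534). Rbf, the retinoblastoma family repressor, had 8.94, 9.09 and 8.73 against 9.30, 9.24 and 9.25 (difference 0.34, SE 0.11, limma adjusted p = 0.0951). E2f2, the repressor E2F, had 10.41, 10.50 and 10.06 against 10.63, 10.61 and 10.63 (difference 0.30, SE 0.13, limma adjusted p = 0.187). The trh null arrays agreed closely for E2f2 and Rbf, and in all 3 genes they lay above every wild type array. All 3 passed without wild type replicate 2 (limma adjusted p = 0.0302 for Dp, 0.0130 for Rbf and 0.0422 for E2f2).

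**Figure D2:**
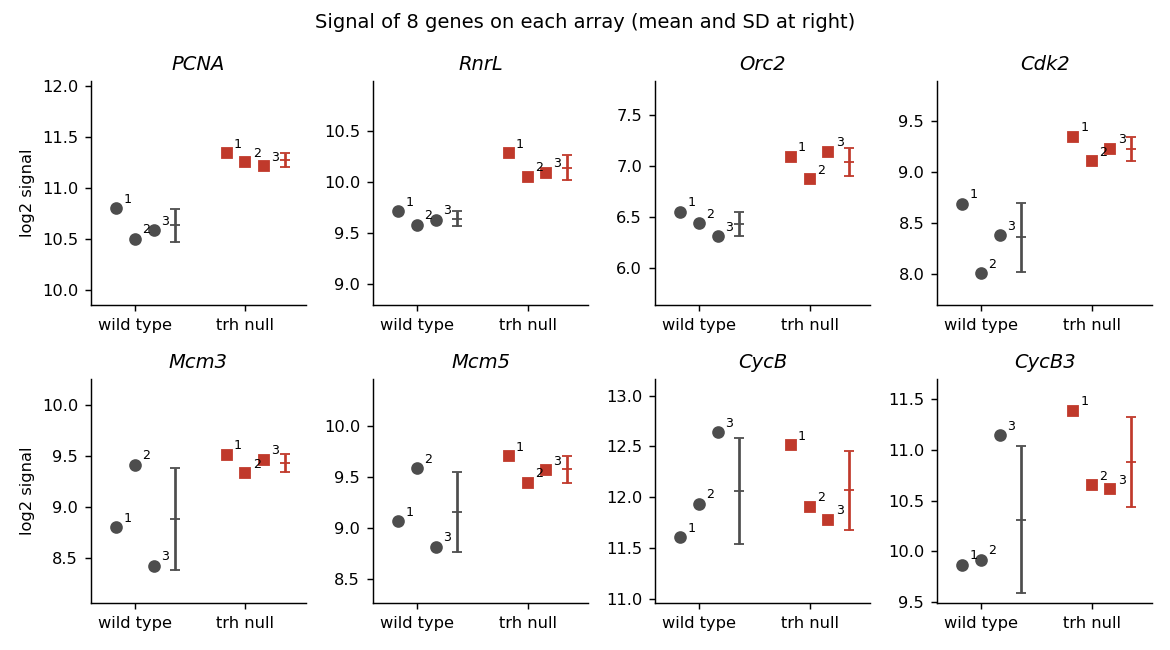
Log2 signal of 8 genes on each array (numbers are replicates; circles, wild type; squares, trh null), with the mean and SD of 3 arrays at the right of each group; every panel spans the same range. PCNA, RnrL, Orc2 and Cdk2 separate the genotypes, Mcm3 and Mcm5 overlap through wild type replicate 2, and CycB and CycB3 are highest on wild type replicate 3 and trh null replicate 1.

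Of the cyclins and kinases of G1 and S phase, Cdk2 rose. Cdk2, the kinase that CycE activates at S phase entry, had 8.69, 8.01 and 8.38 in wild type and 9.35, 9.11 and 9.23 in trh null embryos. It had the largest difference among the 23 measured genes, 0.87 (SE 0.18, 1.83-fold, limma adjusted p = 0.0276). That rank rested on wild type replicate 2, the lowest array for Cdk2. With that array left out, Mcm3 (0.82) and Orc5 (0.80) differed more than Cdk2 (0.70, limma adjusted p = 0.00741). Its wild type arrays were spread over 0.68, and leaving out wild type replicate 3 (limma adjusted p = 0.0675) or any 1 trh null array (0.0897 to 0.114) took it past the threshold. CycE had 9.41, 8.87 and 8.99 against 9.32, 9.43 and 9.54, with wild type replicate 1 inside the trh null range (difference 0.34, 95% confidence interval -0.03 to 0.71). Cdk4 differed by 0.27 without overlap (95% confidence interval 0.06 to 0.49, limma adjusted p = 0.104). CycD, the cyclin of Cdk4, was the only measured gene with a negative difference, -0.11 (95% confidence interval -0.56 to 0.34). Its signals were 8.92, 9.14 and 9.55 against 9.33, 8.94 and 9.01, with the groups overlapping and wild type replicate 3 highest. Leaving out that array turned the difference to 0.06.

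None of the 5 measured mitosis genes passed in limma, and 1, aurB, was higher at an unadjusted p under 0.05. CycB, a mitotic cyclin, had 11.61, 11.94 and 12.64 in wild type and 12.51, 11.91 and 11.78 in trh null embryos. CycB3 had 9.87, 9.92 and 11.14 against 11.38, 10.65 and 10.61. In both, wild type replicate 3 and trh null replicate 1 were the high arrays, and the difference between arrays of a genotype was larger than that between genotypes. The differences were 0.00 for CycB (95% confidence interval -0.73 to 0.74) and 0.57 for CycB3 (-0.37 to 1.51), the widest intervals among the 23 genes, so changes of more than 1.5-fold in either direction are within the error for CycB. aurB, the kinase of the chromosomal passenger complex, had 8.29, 8.95 and 8.44 against 9.29, 8.88 and 8.94, with only wild type replicate 2 in the trh null range. Its difference was 0.48 (limma adjusted p = 0.187), and it passed without that array (0.67, adjusted p = 0.0133). fzy, the Cdc20 activator of the anaphase-promoting complex, differed by 0.37 (95% confidence interval -0.14 to 0.89). fzr, the Cdh1 activator that brings cells into G1 and endocycles, differed by 0.25 (-0.31 to 0.80). Both overlapped between genotypes. Another 2 probe sets for fzy were near 4.7 on all arrays, below the median of all probe sets, and differed by -0.03 and 0.13.

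**Figure D3:**
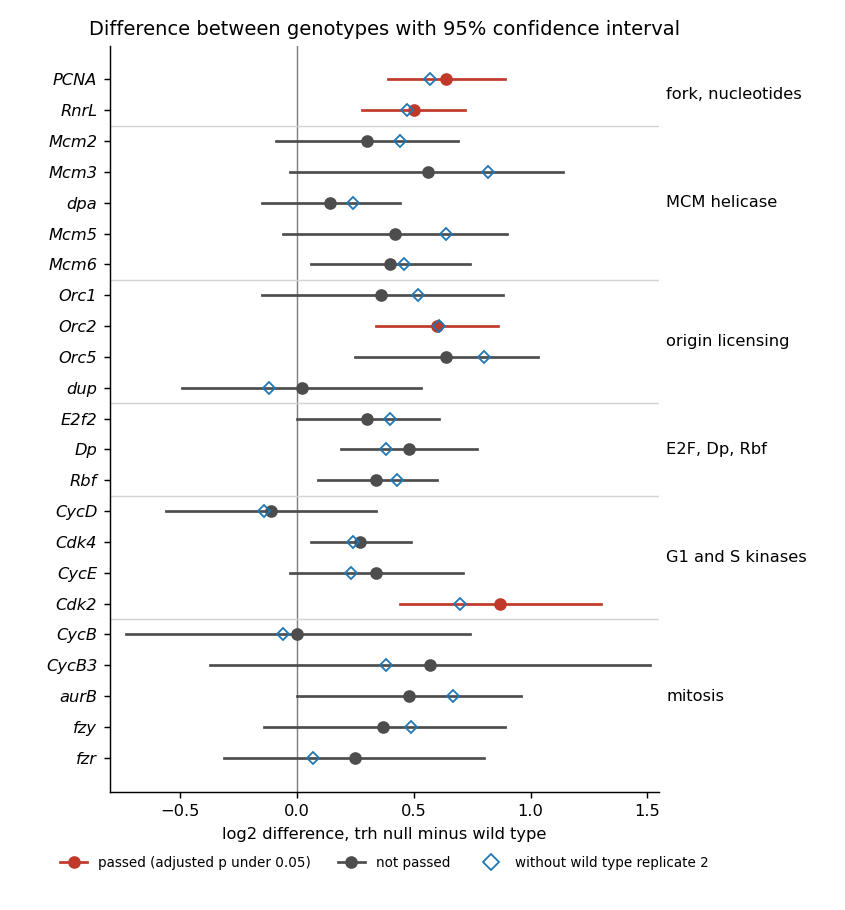
Log2 difference between trh null and wild type for each of the 23 measured genes (dots) with its 95% confidence interval from limma, coloured by whether it passed, and the difference without wild type replicate 2 (open diamonds). The intervals of PCNA, RnrL, Orc2 and Cdk2, the genes that passed, lie clear of 0. So do those of some genes that did not pass, among them Orc5 and Dp, since the intervals are unadjusted. The intervals of CycB and CycB3 are the widest.

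S phase and mitosis genes did not separate by size of difference. The median difference was 0.42 for the 11 S phase genes and 0.37 for the 5 mitosis genes, and no value in either group was below 0. Of the S phase genes 3 rose and 8 did not pass. Both groups were set side by side without a test. Their array patterns differed more. The median deviation of S phase genes from their own means was -0.19, 0.00 and -0.37 on the wild type arrays and 0.35, 0.13 and 0.20 on the trh null arrays, so every trh null array was above every wild type array. For mitosis genes the medians were -0.51, -0.13 and -0.02 in wild type and 0.49, 0.01 and 0.03 in trh null embryos. The genotypes are separated there by only 0.03, and trh null replicate 1 is the only array far above the others. S phase minus mitosis was 0.32, 0.13 and -0.35 on the wild type arrays and -0.14, 0.12 and 0.17 on the trh null arrays, and the trh null values lay inside the wild type range.

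**Figure D4:**
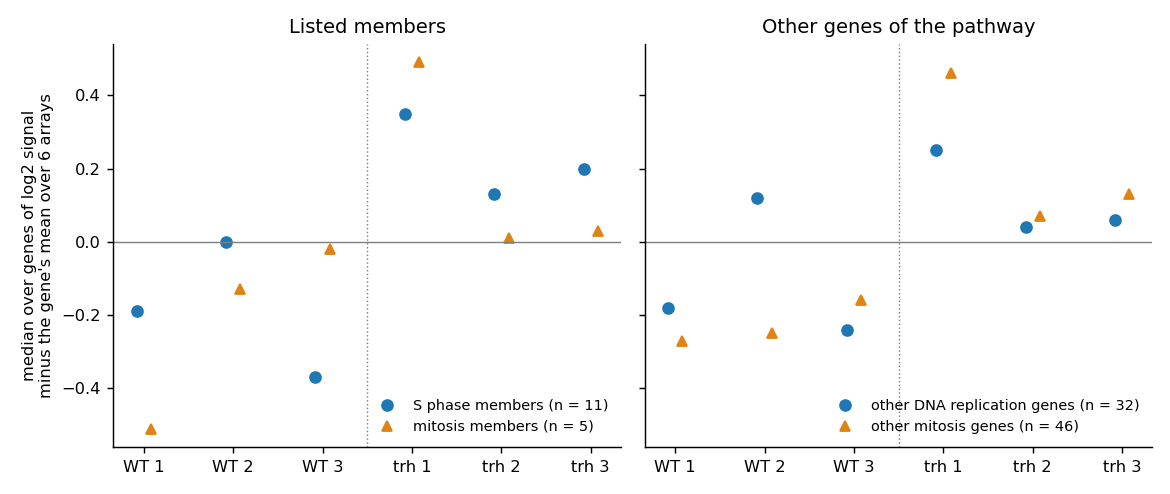
Median deviation of S phase genes (circles) and mitosis genes (triangles) from each gene's mean over the 6 arrays, on the log2 scale, for the listed members (left) and for other genes of the pathway (right). Trh null replicate 1 is the highest array in all 4 series, and wild type replicate 2 is at 0.12 for other replication genes but at -0.25 for other mitosis genes.

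Other genes of the pathway were read from lists made from general knowledge, with earlier results of these data known. Of 32 other DNA replication genes 2 rose and 30 did not pass, which is 6.25% and close to the 6.79% of all genes. The 2 were Cdc45, a partner of the MCM ring in the active helicase (0.82, SE 0.13, limma adjusted p = 0.0131), and PolE2, a subunit of DNA polymerase epsilon (0.59, SE 0.13, adjusted p = 0.0348). The call for Cdc45 was lost without any 1 trh null array (limma adjusted p up to 0.0719), and that for PolE2 was lost without any 1 array except wild type replicate 2 (up to 0.136). Cdc45 had a wild type mean of 7.56 and a trh null mean of 8.39. The median difference of the list was 0.25, with 23 of 32 values positive, beside 0.42 and 11 of 11 for the listed S phase genes. Of the GINS subunits that complete the helicase, Psf1 and Psf3 had negative differences (-0.41 and -0.27) and Psf2 and Sld5 lay near 0 (0.05 and 0.03), none of which passed. The GINS genes were singled out after their values were seen.

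Of 46 other mitosis genes 8 rose, which is 17.4% beside 6.79% of all genes, and 38 did not pass. The median difference was 0.43, beside 0.25 for the other replication genes. Without wild type replicate 2 these medians were closer, at 0.32 and 0.28. Cap-D2, a condensin subunit that compacts mitotic chromosomes, had 7.60, 7.08 and 7.62 in wild type and 9.35, 8.78 and 8.95 in trh null embryos. This was a 3.02-fold rise (a log2 difference of 1.60, SE 0.20, limma adjusted p = 0.00618), larger than that of any listed gene. rod, a kinetochore protein of the spindle checkpoint, had 6.69, 6.55 and 6.20 against 7.72, 7.45 and 7.58, a 2.15-fold rise (limma adjusted p = 0.00698). Both kept their calls with each array left out in turn, with adjusted p up to 0.0375 and 0.0452. Mps1, a checkpoint kinase, rose from below to just above the median of all probe sets (5.60 to 6.56, limma adjusted p = 0.0138). Cap-G, of condensin (0.43), Sse, the separase gene (0.73), and Cdc27, of the anaphase-promoting complex (0.64), rose as well (limma adjusted p = 0.0138, 0.0151 and 0.0170). The remaining 2 that rose, named here because the count is small, were the checkpoint kinase gene Bub1 (0.36) and vih, a ubiquitin-conjugating enzyme of the anaphase-promoting complex (0.79). The calls for Cap-G, Sse and Cdc27 were lost without trh null replicate 1 or 3, those for Cap-G and Cdc27 also without trh null replicate 2, and that for Cdc27 without wild type replicate 1. With trh null replicate 3 left out, Mps1 no longer passed (0.0602 for limma's adjusted p). The same held for Bub1 and vih with wild type replicate 3 or any 1 trh null array left out (up to 0.172 and 0.0927).

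Of 14 other cell cycle regulators 3 rose and 11 did not pass, with a median difference of 0.15. slmb, an F-box protein of the SCF ubiquitin ligase, rose by 0.56 (SE 0.08, limma adjusted p = 0.0102). mip130, of the Myb and E2F2 repressor complex, rose by 0.58 (adjusted p = 0.0434), and mei-41, the ATR checkpoint kinase gene, by 0.39 (adjusted p = 0.0462). None of the 92 genes of the 3 lists fell in limma, also at an unadjusted p under 0.05. For mip130 and mei-41 the call was lost without wild type replicate 1 or any 1 trh null array (limma adjusted p up to 0.154 and 0.176), and for mei-41 also without wild type replicate 3. The call for slmb was lost without trh null replicate 2 or 3 (adjusted p up to 0.0568).

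The counts depended on single arrays. Without wild type replicate 2, 12 of the 23 cell cycle genes rose and none fell, while of all genes 17.4% rose and 14.8% fell. The 12 held all 4 called with 6 arrays, and Mcm2, Mcm3, Mcm5, Orc5, E2f2, Dp, Rbf and aurB. By group these were 7 of 11 S phase genes and 1 of 5 mitosis genes. Of the other replication genes 12 of 32 then rose and 1, chif, fell, and of the other mitosis genes 17 of 46 rose. Leaving out trh null replicate 1 or 3 left none of the 23 called, and leaving out trh null replicate 2 left 1, Orc2. The share of all genes called in these fits is not given here. Calls over all probe sets also depended on the array left out, as given with the alternatives below. The loss is therefore not read as particular to these genes. Trh null replicate 1 was the highest trh null array for 19 of the 23 genes, for 30 of 32 other replication genes and for 38 of 46 other mitosis genes, but for 36.7% of all genes.

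Genes listed as early or late in the embryo also differed between the genotypes. Of 12 late cuticle and muscle genes 9 fell and none rose, with a median difference of -1.52. Among the 9 were the chitinase gene Cht5 (-4.30), the troponin C gene TpnC73F (-2.33) and the paramyosin gene Prm (-1.51). Mlc2 (-0.80), Ddc (-0.69) and ple (0.11) did not pass. An effect of the trh genotype on these genes apart from embryo age was not tested. The summed signal of that list ran from 14.83 to 15.42 on wild type and from 13.69 to 13.99 on trh null arrays (log2 scale). Of 11 early segmentation genes 5 rose and none fell, with a median of 0.46, among them ftz (1.22), Kr (1.14) and twi (0.63). Their role in segmentation falls mostly before stage 11, where the labels begin, so later signal of these genes was read here. The wild type means of sna (10.05), h (9.99) and odd (9.03) were above the median of all probe sets, 6.21, while 2 of the 11 genes were below it. Whether the rise of this list reflects embryo age was not tested. The summed signal of the early list ran from 11.43 to 12.19 on wild type and from 12.36 to 12.43 on trh null arrays. Wild type replicate 2 was the lowest wild type array for 9 of these 11 genes, beside 3940 of all 11981 genes. Without that array the median of the early list was 0.23, 5 rose and 1, h, fell. The call for Kr was lost without trh null replicate 2 or 3 and that for twi without any 1 trh null array (limma adjusted p up to 0.0597 and 0.0863). These lists had been reported on from the same arrays before and give no independent support. The part of embryo age in the values of the cell cycle genes was not tested.

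Markers of cells that still divide, and of neurons and germ cells, were read beside these. Of 8 neuroblast markers sens rose (0.74, limma adjusted p = 0.0184), none fell and 7 did not pass; the median difference was 0.22 and the summed signal 12.00 to 12.31 in wild type against 12.35 to 12.47 in trh null embryos. Without wild type replicate 2 the neuroblast median was 0.40 and 3 of 8 rose, beside 17.4% of all genes in that fit. The call for sens was lost without wild type replicate 3 or any 1 trh null array (limma adjusted p up to 0.0927). All 8 neuroblast markers were brighter than the median probe set. Of 5 neuron markers none passed in limma and 3 were higher at an unadjusted p under 0.05, beside 15.1% of all genes. These were elav (1.65, limma adjusted p = 0.0819), futsch (1.15, 0.0593) and brp (0.56, 0.0544), while nSyb (0.10) and para (0.08) lay near 0. The summed signal of the neuron list was 9.96 to 11.32 in wild type against 12.04 to 12.28 in trh null embryos. Without wild type replicate 2, 3 of these 5 neuron markers rose, again beside 17.4% of all genes. Of 7 germ cell markers ovo, which epidermis also uses, rose by 0.83 (limma adjusted p = 0.00778) and 6 did not pass. The ovo call was lost without trh null replicate 3 (adjusted p = 0.0509), and without wild type replicate 2, 2 of the 7 rose. The summed signal of the germ cell list was 11.62 to 12.24 against 12.42 to 12.49, and vas, which marks germ cells, was at 5.11 and 5.20, below the median of all probe sets. The part of these cell types in the cell cycle values was not tested.

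The 3′ over 5′ signal of the actin control probe sets was 1.36 ± 0.09 on wild type and 0.76 ± 0.03 on trh null arrays (log2 scale, SD, n = 3). For the GAPDH control probe sets it was 1.12 ± 0.08 and 0.84 ± 0.13. The part of this ratio in the cell cycle values was not tested beyond the gene length trend. With the trend on gene length removed from each array the medians were 0.42 for S phase and 0.38 for mitosis genes, and 6 of the 23 genes rose.

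**Figure D5:**
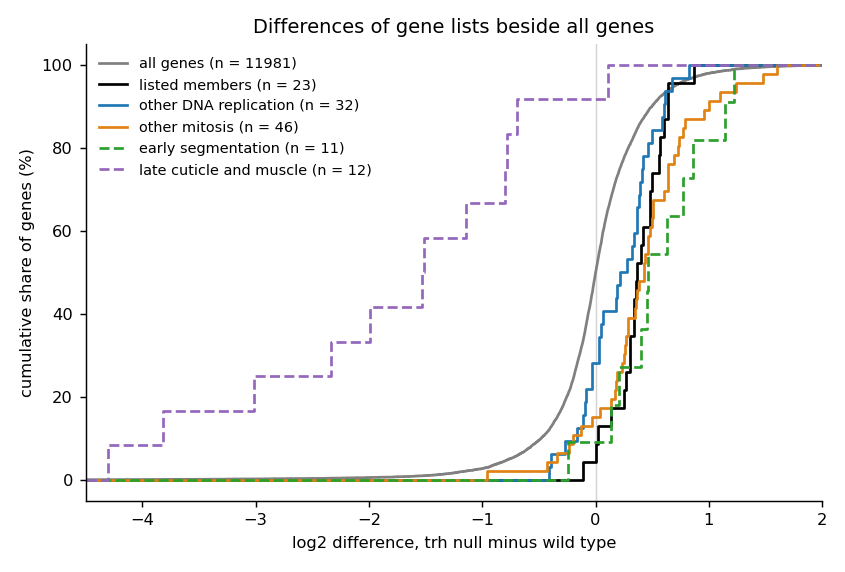
Cumulative share of genes (%) by log2 difference between trh null and wild type. Curves are for all genes, the listed members, 2 lists of other pathway genes, early segmentation genes, and late cuticle and muscle genes. The listed members are centred on 0.37 and the other mitosis genes on 0.43, right of all genes at 0.00, while late cuticle and muscle genes are centred on -1.52.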

How the data were processed

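The values were log2 signals of 6 arrays as deposited by the authors, with base 2 inferred from their range (3.21 to 14.94) and from RMA, which, with Partek, is named without version per the submitters' processing notes. RMA as generally run equalises the quantiles of all arrays, so a change shared by all transcripts is hidden. Of 18952 probe sets, 183 controls were left out. Gene names came from the platform annotation, in which 13646 probe sets name 1 gene, 402 several and 4721 none; those with several were not used. 13543 matched RefSeq genes by identifier, which gave gene lengths. A gene was read from its brightest probe set over all 6 arrays.

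Genotype was fitted with limma 3.58.1 (lmFit, eBayes; R 4.3.3) over all 18769 remaining probe sets, with Benjamini-Hochberg adjustment and a threshold of 0.05. In simulated data of 18769 probe sets, 70.0% of log2 changes of 1 and 94.0% of changes of 2 were recovered. The differences of the measured members ran from -0.11 to 0.87, and changes of that size were not simulated. The simulation gave both genotypes the same SD, whereas the wild type SD was the larger for 81.0% of all genes. Lists were described by counts and medians beside all genes, without a set test. All measured members were named; of each pathway list the up to 6, and of each marker list the up to 3, called and non-overlapping genes with the smallest adjusted p (the 2 with the largest difference where none was called). Members and lists were chosen with earlier results of these data known. Alternatives were array weights, a trend and robust prior, cyclic loess, median centring, quantile normalization, a replicate block, averaging all probe sets of a gene, a filter on the 40% dimmest, removal of the gene length trend and leaving out each array. Promoter motifs were planned but not examined, as no sequence was used here. Tables and figures were made with pandas 2.3.3 and matplotlib 3.10.9 in Python 3.11.15. The number of arrays limits the precision.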

Additional observations from a re-analysis of the deposited data

How the results depend on the processing

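The medians of S phase and mitosis genes stayed positive under every alternative run, from 0.35 to 0.52 and from 0.24 to 0.59, and no measured cell cycle gene fell under any of them. S phase minus mitosis ran from -0.09 (array weights) to 0.17 (all probe sets of a gene averaged), so its sign is not settled. Calls moved more. Array weights, which gave wild type replicate 2 a weight of 0.136, called 15 of the 23 genes as higher, 37 of the 92 other pathway genes, and 3253 probe sets as higher and 2750 as lower. The trend and robust prior left 8 other pathway genes. The replicate block left 2 of the 23, 3 of the 92, and 326 probe sets higher and 400 lower, but same-numbered arrays did not deviate together (correlations of -0.37, -0.06 and -0.05), and 0 of 3 wild type arrays correlated best with their own number. Leaving out each array in turn gave 0 to 12 of the 23, 2 to 33 of the 92 higher and 0 to 1 lower, and 325 to 2812 probe sets higher and 379 to 2189 lower; it also removes 1 of 3 replicates. Averaging within genes gives no count of probe sets. The sign of dup turned under 7 alternatives, that of CycB, at 0.00 with all arrays, under 5, that of CycD under 2 and that of fzr under 1. The cause of these changes was not tested.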

Other observations

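Some other mitosis genes shared all or part of the array pattern of CycB and CycB3, and were singled out after their values were seen. twe, a Cdc25 phosphatase gene with a maternal supply, had log2 signals of 6.74, 6.77 and 8.60 on the wild type arrays and 7.88, 6.87 and 6.66 on the trh null arrays. pim, the securin gene, had 9.72, 10.00 and 11.08 against 9.92, 9.05 and 8.95. borr, of the chromosomal passenger complex, had 10.57, 10.82 and 11.31 against 11.55, 10.93 and 10.92. In each, wild type replicate 3 was the highest wild type array and trh null replicate 1 the highest trh null array. In pim, unlike in CycB and CycB3, trh null replicate 1 (9.92) lay below wild type replicate 2 (10.00). Wild type replicate 3 was the highest wild type array for 22 of 46 other mitosis genes, 7 of the 23 measured members and 6 of 7 germ cell markers, beside 27.7% of all genes. Trh null replicate 1 was the highest trh null array for 38 of 46, 19 of 23 and 3 of 7, beside 36.7% of all genes. The source of this pattern was not tested.

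E2f1 was covered by a probe set that also names Torsin, with log2 signals of 11.05, 11.21 and 10.83 in wild type and 11.07, 11.22 and 11.24 in trh null embryos, where the groups overlapped. A probe set naming fzr and BaraC had 6.26, 6.40 and 6.57 against 6.24, 6.21 and 6.05, lower on all trh null arrays and close to the median of all probe sets, while the probe set naming fzr alone had a positive difference of 0.25.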
